A study of Mus musculus with 133 samples.

Results

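Genes of T cells and natural killer (NK) cells were followed across mammary tumors of a cross between the Diversity Outbred mouse population and the MMTV-PyMT transgenic line. The 10 genes were taken by name, as the probeset of highest mean among those annotated to that gene alone, from 19938 named genes on the array. They were Cd3d, Cd3e, Cd3g, Cd4, Cd8a, Gzma, Gzmb, Prf1, Nkg7 and Il2rb, and each had exactly 1 such probeset. All tumors carried the PyMT transgene, in which the MMTV promoter drives the middle T antigen of polyoma virus in mammary epithelial cells, on a background in which each animal inherits its own mixture of founder alleles. No animal was treated, the labels give no age, and they put all tumors into 1 biological group, so the comparisons were made between genes across tumors. Of 133 arrays, 6 whose titles end in the letter r were left out, since the labels do not say what the letter means. The remaining 127 arrays were from 127 animals, 48 with a running number in the title and 79 with another title. Values were log2 expression levels, and both title forms were centered on their own mean before tumors were compared. RNA came from whole tumors, so fewer cells of a type and less RNA per cell cannot be told apart.

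T cells recognize antigen through a receptor that signals by way of the CD3 chains. The co-receptor CD4 marks helper and regulatory T cells, and CD8 marks the T cells that kill infected or transformed cells. Both CD8 T cells and NK cells kill by releasing granules that hold perforin, which opens the target membrane, and granzymes, which are proteases that start cell death. Chemokines draw lymphocytes into tissue, and interferon gamma, made by activated T and NK cells, turns on some of the chemokine genes. On the array, Cd3d, Cd3e and Cd3g stood for the T cell receptor complex, Cd4 and Cd8a for the co-receptors, and Gzma, Gzmb and Prf1 (perforin) for the killing granule. Nkg7 encodes a granule membrane protein of NK cells and activated T cells. Il2rb encodes the beta chain of the interleukin 2 and interleukin 15 receptors, which NK cells and memory T cells carry.

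The members lie on several chromosomes, but the 3 CD3 genes are neighbors on mouse chromosome 9 (GRCm38.p6), where Cd3d and Cd3g are read in opposite directions from starts 1355 bases apart. RefSeq promoter windows (GRCm38.p6) matched 8 of the 10 members, all but Cd4 and Il2rb. In the 250 bases before each start, 5 motifs were searched on both strands. These were the RUNX motif TGTGGT, the T-box motif GGTGTGA, the gamma-activated site (GAS) TTCNNNGAA, the interferon-stimulated element (ISRE), which is GAAA, any 2 bases and GAAA, and the ETS motif AGGAAGT. The RUNX letters stood in the windows of Gzma, Gzmb, Prf1 and Nkg7 and in none of the 4 windows of Cd3d, Cd3e, Cd3g and Cd8a, while 14.0% of 32851 promoter windows held them. The T-box letters were found in the Nkg7 window alone, at bases -13 to -7, and in 3.33% of all windows. The GAS letters were found in Nkg7 and Cd3d (7.02% of all windows), the ISRE letters in Gzma (2.98%) and the ETS letters in Cd3d, Cd3e and Prf1 (7.69%). In Cd3d the ETS and GAS letters overlap. A match describes the letters only, and binding was not measured. The windows of the 4 granule genes are printed because these members shared a motif and because their levels are followed in what comes next. They read 5′ to 3′ on the strand of the gene and end at the base before the start, with every match to any of the 5 motifs in capitals.
Nkg7, chr7:43436888-43437137, plus strand: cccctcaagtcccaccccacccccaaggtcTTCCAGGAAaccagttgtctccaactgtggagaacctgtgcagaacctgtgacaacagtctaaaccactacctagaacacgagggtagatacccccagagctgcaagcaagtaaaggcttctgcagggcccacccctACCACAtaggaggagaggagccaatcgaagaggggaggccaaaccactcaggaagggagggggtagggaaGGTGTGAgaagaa
Gzma, chr13:113100982-113101231, minus strand: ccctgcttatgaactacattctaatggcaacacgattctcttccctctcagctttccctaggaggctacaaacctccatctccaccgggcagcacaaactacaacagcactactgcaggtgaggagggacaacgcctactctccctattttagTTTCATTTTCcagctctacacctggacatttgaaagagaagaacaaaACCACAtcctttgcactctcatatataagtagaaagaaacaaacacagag
Gzmb, chr14:56262335-56262584, minus strand: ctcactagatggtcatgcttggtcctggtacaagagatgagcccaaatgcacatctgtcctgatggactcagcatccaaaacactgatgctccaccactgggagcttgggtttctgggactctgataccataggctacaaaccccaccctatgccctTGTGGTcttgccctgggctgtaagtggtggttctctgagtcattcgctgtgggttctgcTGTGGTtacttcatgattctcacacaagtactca
Prf1, chr10:61297586-61297835, plus strand: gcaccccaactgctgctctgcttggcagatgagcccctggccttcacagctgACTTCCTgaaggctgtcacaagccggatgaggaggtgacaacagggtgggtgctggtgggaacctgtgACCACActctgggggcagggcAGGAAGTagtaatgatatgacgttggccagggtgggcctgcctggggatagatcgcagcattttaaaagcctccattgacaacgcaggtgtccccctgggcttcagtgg

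The T cell receptor genes had a few high tumors. Cd3e ran from 6.18 through a median of 6.63 to 7.38 in the tumors with numbered titles, and from 6.00 through 6.50 to 9.46 in the others. Cd3g ran from 4.88 through 5.50 to 6.96 in the first and from 4.97 through 5.61 to 9.87 in the second. Cd3d had the smallest range of the 3 chains, 4.46 to 5.02 with a median of 4.71 and 4.28 to 6.23 with a median of 4.68. For each chain the 2 title forms overlapped, and the highest levels were from tumors with other titles. Cd4 also reached its highest level in the other tumors, at 5.33, 5.67 and 6.27 (lowest, median and highest) in the numbered and 5.05, 5.63 and 9.14 in the other tumors. The corresponding values of Cd8a were 5.39, 5.69 and 6.11, and 5.20, 5.63 and 8.00.

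Among the other titles, the highest levels of the granule genes lay closer to the median than that of Cd3e. Gzmb lay between 5.03 and 6.80 with a median of 5.70 in the numbered tumors, and between 4.76 and 6.63 with a median of 5.43 in the others. Gzma lay between 4.17 and 5.07 (median 4.47) and between 3.95 and 5.28 (median 4.21), and Prf1 between 5.76 and 6.61 (median 6.02) and between 5.29 and 6.51 (median 5.76). For these 3 genes the title forms overlapped, and the median of the other titles was the lower one. Whole arrays differed in the same direction, with a median array level of 6.176 for numbered and 5.953 for other titles. Nkg7 spread more widely, from 5.38 through 5.98 to 7.17 and from 5.01 through 5.85 to 8.56. Il2rb ran from 4.74 through 5.25 to 6.25 and from 4.75 through 5.29 to 7.44. All 10 members had mean levels below that of the median gene on the array. Around the mean of the title form, the standard deviation across the 127 tumors was highest for Cd3g (0.71), Nkg7 (0.58) and Cd4 (0.53), against a median of 0.216 over all genes. It was lowest for Prf1 (0.19), Gzma (0.23) and Cd3d (0.25).

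**Figure D1:**
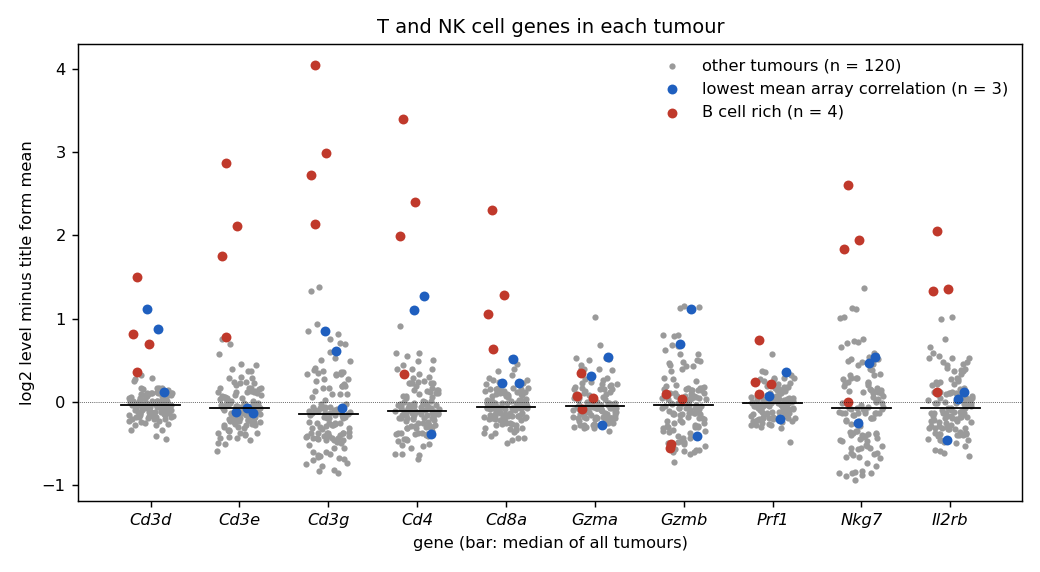
Log2 level of each gene (vertical axis, minus the mean of the title form) in 127 tumors, with 1 point a tumor and a bar at the median. The 4 B cell rich tumors (red) are the highest for Cd3e, Cd3g and Cd8a but lie between -0.55 and 0.09 for Gzmb, within the range of the other tumors.

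The highest values of Cd3e, Cd3g and Cd8a belonged to 4 tumors that were also rich in B cell genes. The mean of the 9 measured B cell markers stood 3.60, 2.70, 2.24 and 1.17 above the title form in the tumors of animals 14094, 14322, 14262 and 14000, all with other titles, and no other tumor exceeded 0.64. The levels of these 4 tumors were above those of all the other 123 for Cd79a and Cd79b, which encode the signaling chains of the B cell receptor, for Ms4a1 (CD20) and for Cr2, the complement receptor of follicular dendritic and B cells. Of the other B cell markers, Cd22 and Fcer2a were above all others in the 4 tumors, Pax5 in 3, Fcrla in 2 and Blk in 1. The 4 tumors were chosen because the mean of these 9 markers was over 1 log2 unit, so high markers in them follow largely from the choice. Among lymph node genes, all 4 were above the rest for Ccl19, the chemokine of lymphoid T zones, and for Cd209b, a lectin of lymph node macrophages. Cxcl13, the chemokine of B cell follicles, was above all others in 3 of the 4. Glycam1, which high endothelial venules and lactating mammary gland both express, was 4.16 to 5.50 above the mean in these 4, but another tumor reached 6.16. Madcam1, the addressin of mucosal venules, was not high, at -0.01 to 0.50 against up to 0.77 in the rest. What tissue was taken with each tumor is not stated, and the part that lymph node tissue had in these values was not tested.

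Within these 4 tumors the members separated. Cd3e was at 9.46, 8.69, 8.33 and 7.37 in animals 14094, 14322, 14262 and 14000, which held ranks 1, 2, 3 and 4 of all 127. Cd3g (9.87, 8.81, 8.54 and 7.96) and Cd8a (8.00, 6.98, 6.76 and 6.34) held the same ranks. Cd3d ranked 1, 5, 4 and 6. Cd4 was at 9.14, 8.15, 7.73 and 6.09, with the last tumor at rank 16. Nkg7 was at 8.56, 7.90 and 7.80 in the first 3 tumors but at 5.95, rank 56, in animal 14000, and Il2rb was at 7.44, 6.75, 6.72 and 5.51, with ranks 1, 2, 3 and 38. Gzmb was not high in any of them, at 4.93, 5.51, 5.57 and 4.97, ranks 119, 56, 41 and 116. Gzma ranked between 13 and 80, and Prf1 ranked first in animal 14094 (6.51) and 15 to 33 in the other 3. NK cell genes differed among themselves. Klrd1 (CD94) was 1.39, 0.63 and 0.78 above the mean of the title form in animals 14094, 14322 and 14262 and at -0.24 in animal 14000, and Eomes, a T-box factor of NK and memory T cells, was at 0.83 in animal 14094. In contrast, Ncr1, which encodes NKp46, lay between -0.07 and 0.36, and Klrb1c (NK1.1) between -0.17 and 0.17 of the mean of the title form.

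Some tumors stood apart by their array. The arrays of animals 14312, 14320, 14095 and 14094, the last of which is also B cell rich, had the lowest mean correlation with the other arrays, 0.905, 0.917, 0.943 and 0.944. In animals 14312 and 14320, Cd3d was 1.11 and 0.88 and Cd4 1.10 and 1.27 above the mean of the title form, while Cd3e was at -0.12 and -0.08. The array medians of these animals were 6.364 and 6.229, against a median of 5.953 for arrays with other titles. Ncr1, at 1.22 and 1.24, was higher in them than in any other tumor (up to 1.14), as was Eomes, at 1.57 and 1.17. Of other NK cell genes, Klrb1c and Klrc1 were also higher in both. Klrk1 was so only in animal 14312 (1.23) and Tbx21 only in animal 14320 (0.75). Klrd1, at 0.81 and 1.26, was not, since another tumor reached 1.39. Of the other members, Cd3g (0.85 and 0.61), Gzmb (0.69 and 1.11) and Cd8a (0.23 and 0.51) were above the mean of the title form in both animals. Gzma, Il2rb, Nkg7 and Prf1 were not above it in both. Cd3d and Cd4 were thus high there without Cd3e, but not alone among the members, and the part of array quality in these values was not tested. Leaving out these arrays together with the B cell rich tumors kept 120 tumors, a choice made after seeing the data, and results are given for all 127 and for these 120. In the 120, the standard deviation was 0.43 for Cd3g, 0.24 for Cd3e, 0.28 for Cd4 and 0.13 for Cd3d, while it was 0.48 for Nkg7 and 0.38 for Gzmb.

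All 45 pairs of members were positively correlated across the 127 tumors, with Pearson r from 0.016 to 0.908 and a median of 0.478. The same count held in the 120, from 0.020 to 0.866 with a median of 0.336. With all genes, the median r of a member lay between -0.047 (Il2rb) and 0.093 (Cd3d) in all tumors. In the 120 it lay between -0.029 (Gzmb) and 0.040 (Cd3e). The central 95% of all genes had r from -0.272 to 0.417 with Cd3d and from -0.326 to 0.508 with Cd8a in the 120. The lower r among the 45 pairs are thus not particular to lymphocyte genes. The closest pair was Nkg7 and Il2rb, with r of 0.908 in all and 0.866 in the 120 tumors. Cd3e and Cd3g were next in all tumors, at 0.891, and had 0.737 in the 120, where Cd3g was closer to Nkg7 (0.78) and to Il2rb (0.75). For the third CD3 chain r was lower in the 120, since Cd3d with Cd3g went from 0.673 to 0.226 although both encode chains of 1 complex. In the 120 the standard deviation of Cd3d was 0.13, near those of the Y-linked genes Kdm5d (0.14), Eif2s3y (0.11) and Uty (0.1). The animals were female, so those genes have no transcript to measure. The part of the Cd3d probeset in the lower r was not tested. Among the 10 pairs of CD3 chains and co-receptors the median r went from 0.757 to 0.367. Among the 10 pairs that join these to Il2rb or Nkg7 it went from 0.707 to 0.580.

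Gzma, Gzmb and Prf1 had a lower median r with the CD3 chains and co-receptors than Nkg7 and Il2rb had. Over these 15 pairs the median r was 0.254 in all tumors and 0.306 in the 120. The latter was near the 0.367 among the CD3 chains and co-receptors themselves. Among Gzma, Gzmb and Prf1 the median r was 0.214 and 0.129. Gzmb correlated with Nkg7 at 0.444 and 0.635, with Il2rb at 0.372 and 0.592, and with Cd3g at 0.262 and 0.553. It correlated with Cd8a at only 0.031 and 0.144. Gzma was most alike to Gzmb (0.433 and 0.529). Prf1, which acts with both granzymes, had r of 0.016 and 0.116 with Gzmb and 0.510 and 0.400 with Cd8a. In the 120 the 0.400 was within the central range of all genes, for Prf1 (-0.345 to 0.43) and for Cd8a (-0.326 to 0.508). In all tumors the 0.510 was above the upper ends, 0.398 for Prf1 and 0.467 for Cd8a. The standard deviation of Prf1 over all tumors was 0.19, near those of Uty (0.19) and Kdm5d (0.17) and above that of Eif2s3y (0.12). In the 120 it was 0.17, against 0.1, 0.14 and 0.11. The part of the Prf1 probeset in these r was not tested. These correlations are descriptions, over tumors of both title forms with values centered within each form, and with probesets that are all dim.

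**Figure D2:**
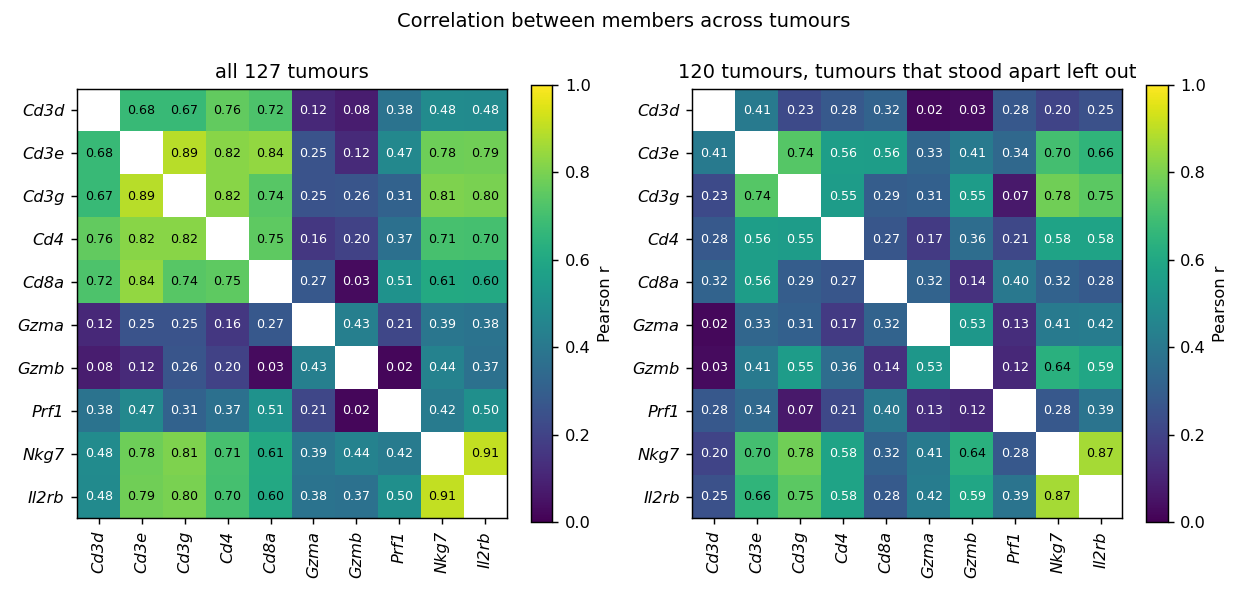
Pearson correlation between members (rows and columns) over all 127 tumors on the left and over the 120 that remained without the tumors that stood apart on the right. Cells give r and the color runs from 0 to 1; Nkg7 with Il2rb stays at 0.87 on the right, while Cd3d with Cd3g is at 0.23.

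Of 5 single relations tested by permutation within title forms (two-sided, 100000 permutations, smallest possible p 1e-05), Cd3e with Nkg7 held in every subset. Its r was 0.780 (95% interval 0.701 to 0.840, p = 1e-05, adjusted p = 2.5e-05) and its Spearman rho 0.719 (p = 1e-05). It was 0.706 within numbered and 0.796 within other titles, 0.704 without the 2 tumors farthest from the median and 0.703 in the 120 tumors (p = 1e-05 in each). Tumors with more Cd3e thus had more Nkg7 in each of these subsets. The relation of the helper and cytotoxic co-receptors was lower where the B cell rich tumors were absent. Cd4 with Cd8a had r of 0.753 (interval 0.667 to 0.820, permutation p = 1e-05, adjusted p = 2.5e-05) and rho of 0.348 (p = 0.00022), and r fell to 0.509 without the 2 farthest tumors. Over the 120 it was 0.268 (0.093 to 0.427, permutation p = 0.00455), which is within the r of Cd4 with the central 95% of all genes (-0.223 to 0.293). Within numbered titles, which hold none of the B cell rich tumors, it was 0.142 (-0.148 to 0.410, permutation p = 0.337), against 0.807 within other titles.

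For Cd3e with Gzmb the call came without those tumors. Over all tumors r was 0.120 (interval -0.055 to 0.288, permutation p = 0.192, adjusted p = 0.24), but rho was 0.373 (p = 2e-05). Without the 2 farthest tumors r was 0.284 (permutation p = 0.00163), and in the 120 tumors it was 0.407 (0.246 to 0.546, p = 2e-05). Within numbered titles it was 0.380 (permutation p = 0.00792) and within other titles 0.058 (p = 0.608). The B cell rich tumors, which had high Cd3e and no high Gzmb, are all among the other titles.

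Cd3e was then fitted against every other gene with limma, with title form as a term, and slopes are given in log2 units per standard deviation of the predictor. A gene is said to rise or fall with a member where its Benjamini-Hochberg adjusted p over all genes was under 0.05. In all tumors 8 of the 9 other members rose with Cd3e and none fell, where 9.78% of the 19937 genes tested rose. The largest slopes were those of Cd3g (0.63 ± 0.028 SE, adjusted p = 7.2e-42), Nkg7 (0.46 ± 0.032, adjusted p = 2.9e-25) and Cd4 (0.44 ± 0.027, adjusted p = 1.8e-30). Gzmb was the exception, with a slope of 0.05 ± 0.035 (adjusted p = 0.35). Over the 120 all 9 rose, where 18.3% of genes did. The slope of Gzmb was then 0.15 ± 0.032 (adjusted p = 0.00017), and the slope of Cd4 was 0.16 ± 0.021 (adjusted p = 8.8e-09).

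The wider T cell program moved with Cd3e in both sets, where 9.78% of all genes rose in all tumors and 18.3% in the 120. Of 18 T cell signaling genes, 17 rose in all tumors and 14 in the 120, among them Lat, the adaptor that the receptor kinases phosphorylate (0.36 and 0.11), Il7r, the survival receptor of resting T cells (0.47 and 0.16), and Cd8b1, the partner chain of Cd8a (0.31 and 0.12). Of 15 regulatory and checkpoint genes, 13 rose in each set. Tigit, an inhibitory receptor of T and NK cells, had slopes of 0.16 and 0.14, and Pdcd1 (PD-1) of 0.09 and 0.08. The 9 B cell markers all rose with Cd3e in all tumors and also in the 120, which hold none of the 4 tumors named for them. The 120 do hold animal 14358, the next highest in the mean of these markers (0.64). It was also the highest of the 120 for Cd3e, at 0.85 above the mean of the title form. How far the slopes of the B cell markers rest on that tumor was not tested. Of 6 markers of luminal epithelium, none rose and 2 fell in all tumors, where 12.2% of genes fell, and 1 fell in the 120, where 10.7% did. How far the share of tumor cells in each sample accounts for these slopes was not tested.

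The same fits were made for Cd4, Gzmb and Nkg7, on the same tumors, so that their counts are not independent of each other. With Cd4, 7 of 9 members rose where 12.5% of all genes did, and 5 of 9 in the 120 tumors, where 2.64% did. Cd3e (0.13 ± 0.018, adjusted p = 4.2e-08), Cd3g, Il2rb, Nkg7 and Gzmb (0.14 ± 0.032, adjusted p = 0.0041) were those in the 120. Gzmb had not passed in all tumors (0.08 ± 0.034, adjusted p = 0.0895), while Cd3d, Cd8a and Prf1 had passed only there. In the 120 tumors Cd8a had 0.05 ± 0.017 (adjusted p = 0.08). The number of genes that rose with Cd4 was 2501 in all tumors, 813 without the 4 arrays of lowest mean correlation and 527 in the 120. With Gzmb, only 3 of 9 members rose in all tumors, where 1.62% of genes did. They were Nkg7 (0.26 ± 0.046, adjusted p = 0.00041), Il2rb (0.15 ± 0.034, adjusted p = 0.0051) and Gzma (0.10 ± 0.019, adjusted p = 0.00076). In the 120 tumors Cd3e, Cd3g and Cd4 joined them, which made 6 of 9 against 1.67%. Cd8a (0.03 ± 0.018, adjusted p = 0.47), Prf1 (0.02 ± 0.016, adjusted p = 0.58) and Cd3d did not pass.

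With Nkg7, all 9 members rose in all tumors, where 9.01% of genes did, and 8 in the 120, where 5.94% did. Il2rb had the smallest p in each set (0.38 ± 0.016, adjusted p = 3.9e-45, and 0.29 ± 0.015, adjusted p = 2.6e-33). Gzmb rose by 0.18 ± 0.031 (adjusted p = 6.3e-06) and 0.24 ± 0.027 (adjusted p = 7.3e-12). Of 14 genes for NK cell receptors and factors, 11 rose with Nkg7 in all tumors and 10 in the 120. With Cd8a the counts were 14 and 12, with Cd4 12 and 4, with Cd3e 9 and 12, and with Gzmb 5 and 1. Of all genes, 27.5% and 29.9% rose with Cd8a and 12.5% and 2.64% with Cd4. With Cd3e 9.78% and 18.3% did, and with Gzmb 1.62% and 1.67%. Among the 10 with Nkg7, Klrd1 (CD94) had 0.13, Ncr1 0.09 and Eomes 0.07. Of 11 other granule and killing genes, 3 rose and 1 fell with Nkg7 in all tumors and 2 rose in the 120, and 1 rose with Gzmb in each set. Serpinb9, the granzyme B inhibitor with which killer cells protect themselves, rose with Nkg7 (0.20 and 0.18) and with Gzmb (0.12 and 0.16). Of 14 cytokine genes, 3 and 2 rose with Nkg7 and 1 in each set with Gzmb. Il15, the cytokine that binds the receptor of which Il2rb is a chain, rose with Nkg7 (0.17 and 0.15) and with Gzmb (0.11 and 0.16).

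Whether a gene followed Nkg7 or Cd3e more closely was tested by fitting both at once. In all tumors 2 members were higher with Nkg7, where 5.19% of genes were, and 4 were higher with Cd3e, where 5.1% were. On the side of Nkg7 were Gzmb (difference 0.58 ± 0.087, adjusted p = 3e-07) and Il2rb (0.23 ± 0.045, adjusted p = 0.00021). On the side of Cd3e were Cd8a (-0.35 ± 0.049, adjusted p = 5.2e-08), Cd4 (-0.28 ± 0.079, adjusted p = 0.015), Cd3g (-0.27 ± 0.079, adjusted p = 0.019) and Cd3d (-0.22 ± 0.051, adjusted p = 0.0022). In the 120 tumors 10.4% of genes were higher with Nkg7 and 26.4% with Cd3e. Gzmb (0.29 ± 0.070, adjusted p = 0.00079) and Il2rb (0.24 ± 0.040, adjusted p = 1.5e-05) stayed on the side of Nkg7, and Cd8a (-0.16 ± 0.039, adjusted p = 0.0011) and Cd3d (-0.09 ± 0.029, adjusted p = 0.0078) on that of Cd3e. Cd4 (0.02 ± 0.053, adjusted p = 0.81) and Cd3g (0.07 ± 0.058, adjusted p = 0.36) then had values near 0, with the sign turned. All 9 B cell markers were on the side of Cd3e in all tumors, and also in the 120.

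Cd8a and Cd4 were set against each other in the same way, and no member was higher with Cd8a than with Cd4. In all tumors Gzmb alone of 8 members was on the side of Cd4 (-0.27 ± 0.096, adjusted p = 0.039), where 7.95% of all genes were. In the 120 tumors Il2rb (-0.14 ± 0.041, adjusted p = 0.006), Nkg7 (-0.18 ± 0.059, adjusted p = 0.014) and Cd3g (-0.15 ± 0.053, adjusted p = 0.02) were on that side, where 8.12% of genes were, and Gzmb was not (-0.11 ± 0.054, adjusted p = 0.099). For Prf1 the difference was 0.10 ± 0.041 in all tumors (adjusted p = 0.0583) and 0.04 ± 0.024 in the 120 (adjusted p = 0.156), and did not pass. No granule gene was thus called on the side of the cytotoxic co-receptor, where 11% of all genes were in all tumors and 26.3% in the 120. In the 120 the standard deviation was 0.2 for Cd8a and 0.17 for Prf1, against a median of 0.189 over all genes. In all tumors it was 0.33 for Cd8a and 0.19 for Prf1, against a median of 0.216. The part of the spread in the absence of a call was not tested. That absence alone cannot show whether granule genes follow CD8 T cells. The Cd8a probeset also rose with many genes that are not from lymphocytes, as 27.5% of all genes rose with it in all tumors and 29.9% in the 120. The genes highest with Cd8a against Cd4 in the 120 tumors were those of skeletal muscle, led by Atp2a1, the muscle calcium pump (0.69), and Myh4, a fast myosin heavy chain (0.60). Amtn (-1.02), Hp, which encodes haptoglobin (-0.63), and Adipoq, which encodes the fat cell hormone adiponectin (-0.56), were among the lowest. After quantile normalization of all arrays 3860 genes followed Cd8a in place of 9123.

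**Figure D3:**
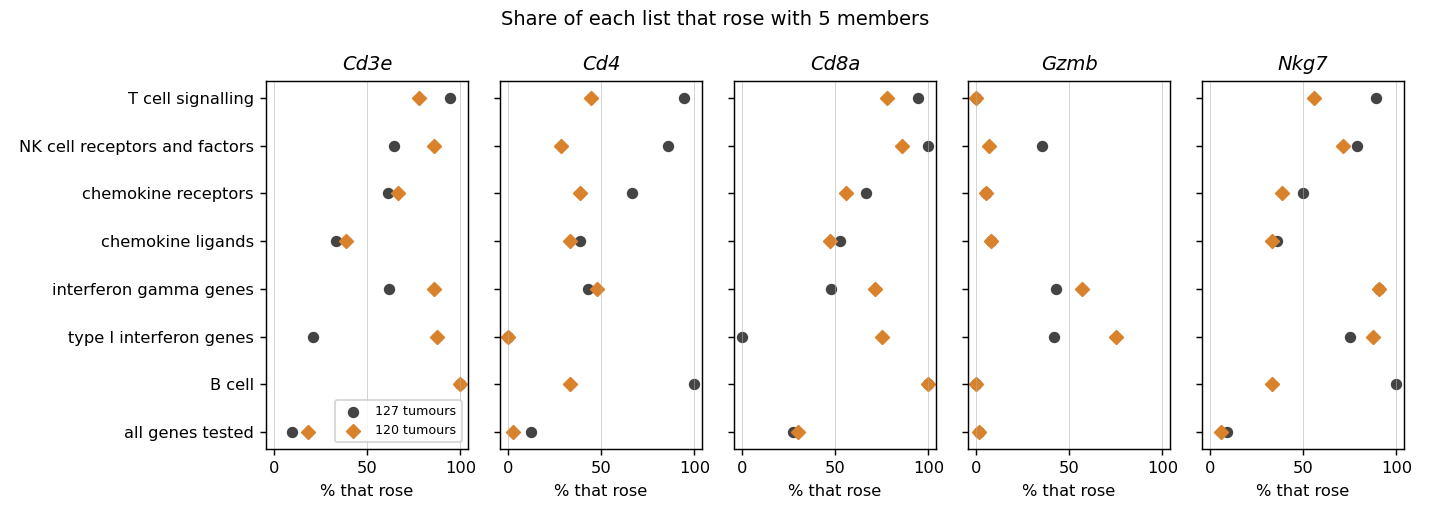
Percentage of the tested genes of each list (rows) that rose with the member named above each panel, in all 127 tumors (circles) and in the 120 (diamonds). The bottom row is the background of all genes; type I interferon genes rose with Nkg7 at 75% and 87.5% and with Cd4 at 0% in both sets.

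Chemokine ligand genes rose with every fitted member, in counts that are read against the share of all genes that rose. Of 36 ligands measured, 12 rose with Cd3e, 14 with Cd4, 19 with Cd8a, 3 with Gzmb and 13 with Nkg7 in all tumors, where 9.78%, 12.5%, 27.5%, 1.62% and 9.01% of all genes rose. In the 120 the counts were 14, 12, 17, 3 and 12, where 18.3%, 2.64%, 29.9%, 1.67% and 5.94% rose. The 3 that rose with Gzmb were the same in both sets, and they rose with Nkg7 too. They were Cxcl9, an interferon gamma induced ligand of CXCR3 (0.27 and 0.33 with Gzmb, 0.52 and 0.52 with Nkg7), Ccl5, which T and NK cells themselves secrete (0.20 and 0.27, 0.51 and 0.37), and Xcl1, which NK and CD8 T cells make to attract cross-presenting dendritic cells (0.12 and 0.10, 0.10 and 0.13). Across the 120 tumors, r with Nkg7 was 0.728 for Ccl5, 0.688 for Cxcl9 and 0.632 for Xcl1, the 3 highest of the 36. Cxcl10, another ligand of CXCR3, had 0.429.

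Ccl19 was not among the ligands that rose with Gzmb. Its r with Cd3e was 0.897 in all tumors and 0.597 in the 120, and with Gzmb it was -0.061 and 0.037. Ccl22, a dendritic cell ligand of CCR4, had 0.726 and 0.476 with Cd3e and -0.113 and -0.086 with Gzmb. Cxcl13 had 0.578 and 0.358 with Cd3e and -0.024 and 0.033 with Gzmb. For these 3 ligands the relation to Cd3e was higher in all tumors than in the 120, whereas for Cxcl9 it was 0.525 and 0.606 and for Xcl1 0.205 and 0.542. Receptors moved as well. Of 18 chemokine receptor genes, 11 rose with Cd3e in all tumors and 12 in the 120, 9 and 7 with Nkg7, and 1 and 1 with Gzmb. The shares of all genes that rose were 9.78% and 18.3% with Cd3e, 9.01% and 5.94% with Nkg7, and 1.62% and 1.67% with Gzmb. Ccr7, the receptor for CCL19 on naive T cells and mature dendritic cells, had r of 0.876 and 0.609 with Cd3e, and Cxcr3, the receptor for CXCL9 on activated T cells, had 0.729 and 0.607. The 1 receptor that rose with Gzmb was Cx3cr1, found on monocytes and on differentiated killer cells (0.11 in each set).

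**Figure D4:**
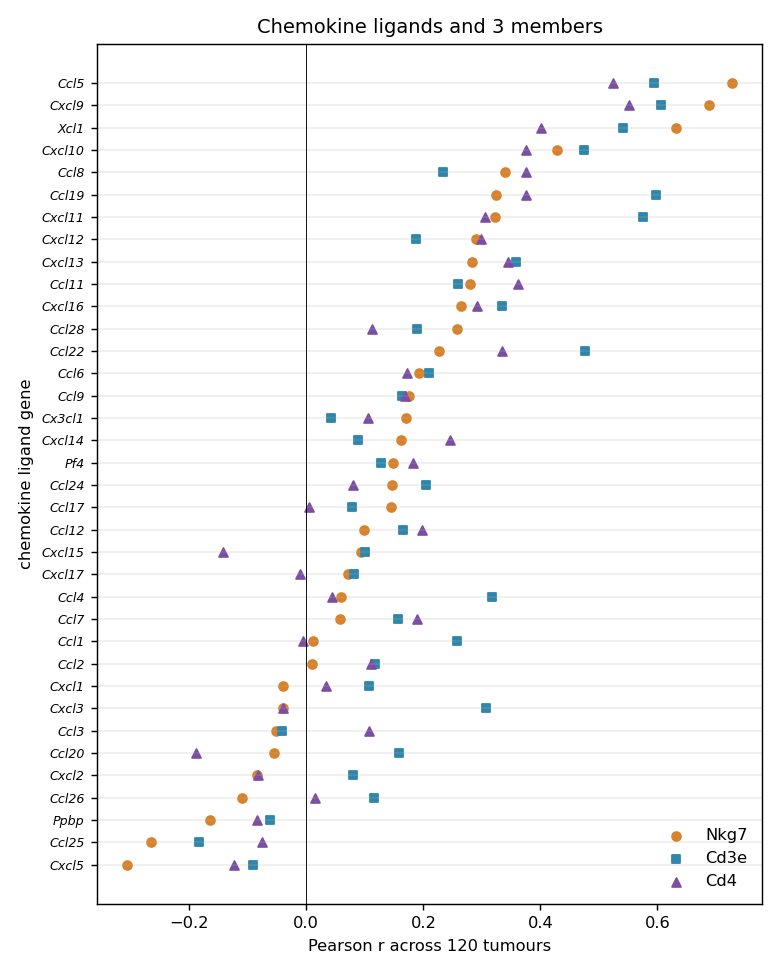
Pearson r (horizontal axis) of each of the 36 chemokine ligand genes (rows, ordered by r with Nkg7) with Nkg7, Cd3e and Cd4 across 120 tumors. Ccl5, Cxcl9 and Xcl1 are the highest with Nkg7, at 0.73, 0.69 and 0.63, and Cxcl5 is the lowest at -0.31.

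Cd8a with Cxcl9 was another of the relations tested by permutation, with r of 0.323 (95% interval 0.158 to 0.471, permutation p = 0.00057, adjusted p = 0.00095) and rho of 0.236 (p = 0.00759). It was 0.285 without the 2 tumors farthest from the median (permutation p = 0.00151), 0.294 in the 120 tumors (permutation p = 0.00097), 0.208 within numbered titles (permutation p = 0.154) and 0.379 within other titles (permutation p = 0.00175). With Ptprc (CD45, the antigen of all leukocytes) as a covariate it was -0.150 (permutation p = 0.0984), with the sign turned. The permutation compares r with 0 only. The central 95% of all genes had r with Cd8a from -0.374 to 0.467 in all tumors and from -0.326 to 0.508 in the 120. The r with Cxcl9 was within that range in both sets, so it is not particular to this chemokine.

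**Figure D5:**
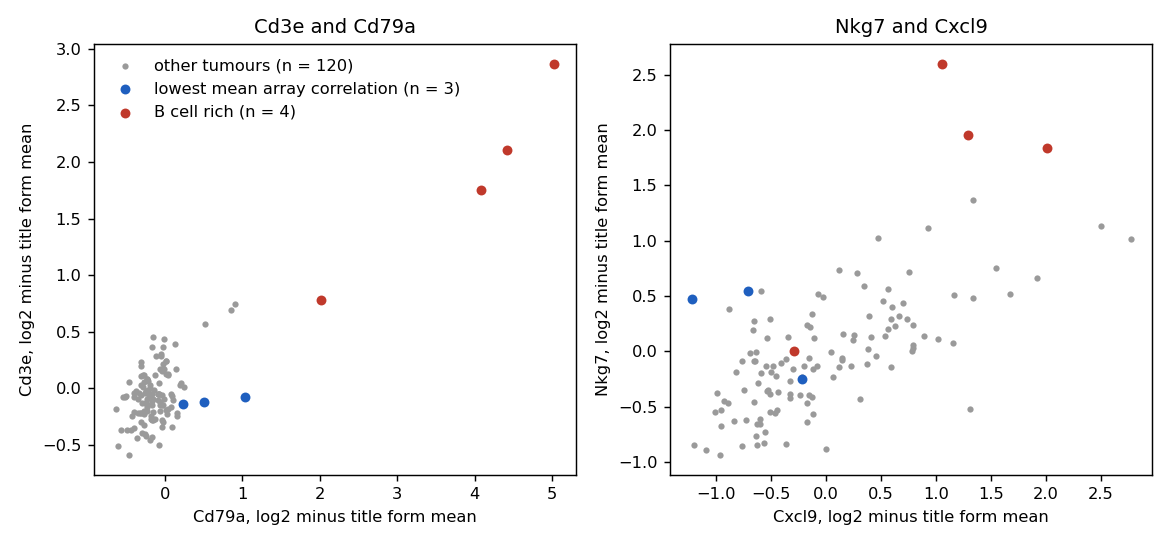
Cd3e against the B cell gene Cd79a on the left, and Nkg7 against the chemokine gene Cxcl9 on the right, as log2 levels minus the mean of the title form, with 1 point a tumor. The 4 B cell rich tumors (red) lie apart on the left, with Cd79a at least 2.02 above the mean, but Nkg7 and Cxcl9 also vary together among the 120 other tumors (gray).

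Some interferon gamma genes rose with each of the 5 fitted members, and whether the counts differ between members was not tested. Of 21 genes that interferon gamma induces, 19 rose with Nkg7 in each set, 13 and 18 with Cd3e, 9 and 12 with Gzmb, 10 and 15 with Cd8a, and 9 and 10 with Cd4, in all tumors and the 120. The shares of all genes that rose were 9.01% and 5.94% with Nkg7, 9.78% and 18.3% with Cd3e, 1.62% and 1.67% with Gzmb, 27.5% and 29.9% with Cd8a, and 12.5% and 2.64% with Cd4. With Nkg7 these included H2-Aa and H2-Ab1, chains of the class II antigen-presenting molecule (0.41 and 0.39, 0.41 and 0.40), Cd74, the invariant chain that loads it (0.37 and 0.36), Iigp1, an interferon-induced GTPase (0.38 and 0.49), and Psmb9, a subunit of the immunoproteasome, whose r with Nkg7 was 0.603 and 0.631. Class II genes also rose with Cd4, H2-Aa by 0.28 and 0.35. Iigp1 rose with Gzmb (0.39 and 0.42) and, in the 120, with Cd4 (0.33).

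Genes of the type I interferon response, which cells of any kind turn on after sensing virus or nucleic acid, gave counts that ranged from none to nearly all. Of 24 measured, 18 rose with Nkg7, 10 with Gzmb, 5 with Cd3e and none with Cd4 or Cd8a in all tumors. In the 120, 21 rose with Nkg7, 18 with Gzmb, 21 with Cd3e, 18 with Cd8a and again none with Cd4. With Cd4, 12.5% of all genes rose in all tumors and 2.64% in the 120, and with Cd8a 27.5% and 29.9% did. With Nkg7 these shares were 9.01% and 5.94%, with Gzmb 1.62% and 1.67%, and with Cd3e 9.78% and 18.3%. Oas2, a sensor of double-stranded RNA, had slopes of 0.43 and 0.56 with Nkg7, 0.31 and 0.59 with Cd3e, and 0.11 and 0.34 with Cd4. Ifit3 had 0.46 and 0.57 with Nkg7, 0.36 and 0.45 with Gzmb, and 0.07 and 0.25 with Cd4. The slopes with Cd4 were thus positive too, and whether they differ from those with Nkg7 was not tested. In the joint fit of Nkg7 and Cd3e, 1 of the 24 was higher with Nkg7 in all tumors and none in the 120.

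Cd8a with Ifit1 was the fifth relation tested. Ifit1 took the place of Isg15, which was not analysed here. Its r was 0.052 (95% interval -0.123 to 0.224, permutation p = 0.589, adjusted p = 0.589) and its rho 0.159 (permutation p = 0.0787). It was 0.199 within numbered titles (permutation p = 0.172), 0.024 within other titles (permutation p = 0.835) and 0.161 without the 2 tumors farthest from the median (permutation p = 0.0807). In the 120 tumors it was 0.262 (0.087 to 0.421, permutation p = 0.00494). That value was within the r of Cd8a with the central 95% of all genes, -0.326 to 0.508.

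The genes most like the members were named by their correlation with the mean standardized level of all 10, as a description. Over all tumors the first were Rasal3 (0.867), Grap2 (0.859), Septin1 (0.849), Cd96 (0.841) and Lat (0.838). Grap2 is an adaptor of T cell receptor signaling, and Cd96 is a receptor of T and NK cells. Over the 120 tumors the first were Cd7 (0.787), Ccl5 (0.717), Itgal (0.716), Xcl1 (0.694) and Rasal3 (0.690), with Itgae (0.687), the integrin chain of lymphocytes that reside in epithelium, close behind. Cd7, a surface protein of T and NK cells, was also first by r for Nkg7 (0.821), Il2rb (0.784), Cd3g (0.708) and Gzmb (0.665). For Gzma the first was Pdcd1 (0.426). For Cd8a it was Celf6 (0.663), which encodes an RNA-binding protein, and for Prf1 it was Col13a1 (0.595), a transmembrane collagen.

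Fat and epithelial genes were among the genes with the largest slopes in the 120 tumors. Car3, the carbonic anhydrase of fat and muscle, rose with Nkg7 (0.75), Cd3e (0.75) and Cd4 (0.79), and Retn, the fat cell hormone resistin, with Nkg7 (0.50), Cd3e (0.46) and Cd4 (0.47). Krt17, a basal keratin, fell with Nkg7 (-0.33), Cd3e (-0.27) and Gzmb (-0.31), and Ak4 with Nkg7 (-0.35), Cd3e (-0.29) and Cd4 (-0.26). Of all genes, 0.963% fell with Gzmb, 4.72% with Nkg7 and 0.411% with Cd4 in the 120, and 0.682%, 9.87% and 8.12% did in all tumors. The part of fat tissue in the slopes of the members was not tested.

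The relations of Cd3e did not differ detectably by title form for any member. In a fit with separate slopes, 42 of 19937 genes differed, none of them a member. The nearest was Cd8a, with a slope of 0.15 in numbered and 0.30 in other titles (adjusted p = 0.286), followed by Gzmb with 0.25 and 0.02 (adjusted p = 0.70).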

How the data were processed

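RNA of whole mammary tumors of 131 animals was measured on 133 Affymetrix Mouse Gene 1.0 ST arrays. The deposited values are log2 expression levels per probeset, which the authors made with RMA according to the submitters' processing notes, with the version and the build not given in the sources used here. Of 35556 probesets, 21789 had 1 gene symbol and gave 19938 genes, 999 of them with several probesets. Precision is limited by the number of arrays. The 127 arrays used are from separate animals.

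Genes were tested with limma 3.58.1 in R 4.3.3 (trended variance, Benjamini-Hochberg adjustment over all genes), with title form as a term and the member scaled to unit standard deviation. The fit on Cd3e was also run on simulated data with noise drawn separately for each gene. That run does not cover the joint fits or genes that vary together across arrays. Permutation p values came from Python 3.11.15 and numpy 2.4.6. Members and gene lists were chosen with earlier results of these data known. Genes named outside the lists were the 10 highest and 5 lowest slopes per fit (10 and 10 for the joint fits), with the same sign in both title forms, and the 15 most like the mean of the members. Probesets with several symbols or none were not used, and some genes of the lists are not reported here. Alternatives were the 6 arrays with suffix r included in 2 ways, quantile normalization, the 4 arrays of lowest mean correlation left out, probesets averaged, dim genes left out, and Ptprc or Cd79a as a covariate. Leaving out the B cell rich tumors (mean of 9 markers over 1 log2 unit above the title form), alone or with those 4 arrays, and the array median as a covariate were added after the data were seen.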

Additional observations from a re-analysis of the deposited data

How the results depend on the processing

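The total of genes that followed Cd3e (4391) stayed within 1.5 times under every alternative run, but its split of 1949 that rose and 2442 that fell was 3979 and 1336 with the suffix r arrays included and 683 and 2366 with dim genes left out. For Cd4 (4120) the count was 910 without the 4 arrays of lowest mean correlation, 2128 with dim genes left out, 1710 with Cd79a and 2386 with the array median as a covariate, 7443 without the B cell rich tumors and 609 without both kinds of tumor. For Cd8a (9123) it was 3860 after quantile normalization and 3850 with dim genes left out. For Gzmb (459) it was 193 with the array median as a covariate. For Nkg7 (3765) it was 2376 without the 4 arrays, 2433 with Ptprc and 1634 with Cd79a as a covariate, 2102 without the B cell rich tumors and 2126 without both. For Cd8a against Cd4 (3775) it was 7084 without the 4 arrays, 6858 without both and 1391 with dim genes left out. With the array median as a covariate, 3313 genes were higher with Cd8a and 1319 with Cd4, against 2191 and 1584; these counts were 3914 and 510 with the suffix r arrays included and 211 and 1180 with dim genes left out. For Nkg7 against Cd3e (2051) it was 4224 with the suffix r arrays as a set of their own, 5301 without the 4 arrays, 1187 with dim genes left out, 3578 with Cd79a as a covariate, 3422 without the B cell rich tumors and 7334 without both. Leaving out dim genes removed all 10 members from the tested genes and cut the number tested to 9969; for the other settings the cause was not tested.

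For Cd4 with Cd8a, r was 0.142 within numbered titles. For Cd3e with Gzmb (0.120), the rank correlation was 0.373, r was 0.380 within numbered titles, 0.284 without the 2 farthest tumors, 0.258 without the 4 arrays, 0.307 with Cd79a as a covariate, 0.391 without the B cell rich tumors and 0.407 without both, all past the threshold, and -0.026 with Ptprc as a covariate. For Cd8a with Cxcl9 (0.323), r was 0.208 within numbered titles, 0.159 with Cd79a and -0.150 with Ptprc as a covariate. For Cd8a with Ifit1 (0.052), it was 0.249 without the 4 arrays, 0.262 without both kinds of tumor and -0.070 with Ptprc. The relation planned with Isg15 was not run.

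Of 1771 repeats of single named genes called in all tumors, 1585 kept sign and call, 174 lost the call and 12 turned sign. With Ptprc as a covariate these were Cxcl13 with Cd3e (-0.056), Cd4 (-0.174) and Nkg7 (-0.111), Cxcl9 with Cd4 (-0.107) and Cd8a (-0.124), and Cxcl10 (-0.024) and Irf8 (-0.012) with Cd4. In Nkg7 against Cd3e, Cd3g turned to 0.067 without the B cell rich tumors and 0.068 without both, and Cd4 to 0.026, 0.018 and, with Cd79a as a covariate, 0.089. None of these was past the threshold after the turn. Where a covariate is itself a leukocyte gene, it takes out variation that the members share with it. No paired analysis was possible because there is 1 biological group and the running numbers occur in 1 title form only.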
